A study of Mus musculus with 2 samples.

Results

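Collagens, the chains of the triple-helical proteins that hold tissues together, were read on 2 expression arrays of mouse pancreas RNA. Probe sets were taken as collagen probe sets where the array's annotation names a single gene whose symbol is Col, a number, the letter a and a number, as in Col1a1. This gave 82 of 45101 probe sets and 42 of 18193 named genes. By the class of their protein, 11 genes were fibrillar collagens, 6 were the type IV collagens of basement membranes and 25 were other collagens. The methionine-deficient pool was pancreas RNA of male offspring whose mothers, C57BL/6J females, ate a diet deficient in methionine while pregnant. The control pool was pancreas RNA of male offspring of C57BL/6J females on a control diet. Both sets of offspring were weaned at 3 weeks, ate control diet from then on and were 10 weeks old, and the labels add that the offspring had no direct treatment after birth. Each group was pooled before labelling and run on a single array, and the number of mice and litters per pool is not given in the sources used here. With n = 1 array per group there is no replicate check and no p-value, and each value below is a single value.

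Each collagen molecule is a trimer of chains whose sequence repeats glycine at regular steps, and these chains are encoded by separate genes. Fibrillar collagens such as types I, III and V assemble into the fibrils of the interstitial matrix, type IV collagens form the sheet-like network under epithelia and around vessels, and the other collagens coat fibrils, form beaded filaments, anchor basement membranes or cross the cell membrane. In the pancreas the interstitial collagens are made mainly by fibroblasts and stellate cells, and type IV chains also by endothelial and epithelial cells. Acinar cells make up most of the organ, so the matrix transcripts come from a minority of its cells.

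A probe set is a group of short probes that reads 1 stretch of a transcript, and several probe sets can read the same gene. A gene was read by its brightest probe set and counted if the mean level of that probe set reached the median of all probe sets, an intensity of 150. Differences are log2(intensity + 1) of the methionine-deficient pool minus that of the control pool, and a gene was counted as different at 2-fold. The error written after ± is the probe noise of that level, a robust SD taken from how far neighbouring probe sets of single genes lie apart. It does not cover the variation between mice or between arrays. All probe sets were cut by level into 5 equal bins, with limits given as intensities. The probe noise was 1.86 below an intensity of 35.4, 2.03 up to 98.7, 0.97 up to 229, 0.54 up to 661 and 0.23 above that. Intensities of different probe sets are not levels of transcripts relative to each other. The digestive enzyme genes that mark acinar cells were bright in both pools, for example Cpa1 at 170196 in the methionine-deficient pool and 168872 in the control pool. In bulk RNA, fewer cells of a type and less RNA per cell cannot be told apart.

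Most collagen genes had close intensities in both pools, and the 2 past the level filter that differed at least 2-fold were dim in the control pool. Of the 42 genes, 22 passed the level filter, of which 15 stood higher and 7 lower in the methionine-deficient pool, while over all genes past the filter 50% were higher. Their median log2 difference was 0.22, against a median of -7.75e-06 over all genes. Col2a1 and Col15a1 were at least 2-fold higher and no collagen gene past the filter was at least 2-fold lower, beside backgrounds of 3.87% higher and 2.8% lower over all 11848 genes past the filter. So 2 of 22 genes (9.09%) differed 2-fold either way, beside 6.68% of all genes. At 1.5-fold the count was 4 of 22 (18.2%), beside 19.4% of all genes. Among the 9 collagen genes past a stricter filter at the 75th percentile of level, none was 2-fold different, 5 were higher and 4 lower, and the median was 0.11. These 9 lie in the brightest level bin, where 0.708% of all genes were 2-fold different, so a count of none is near that share.

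**Figure D1:**
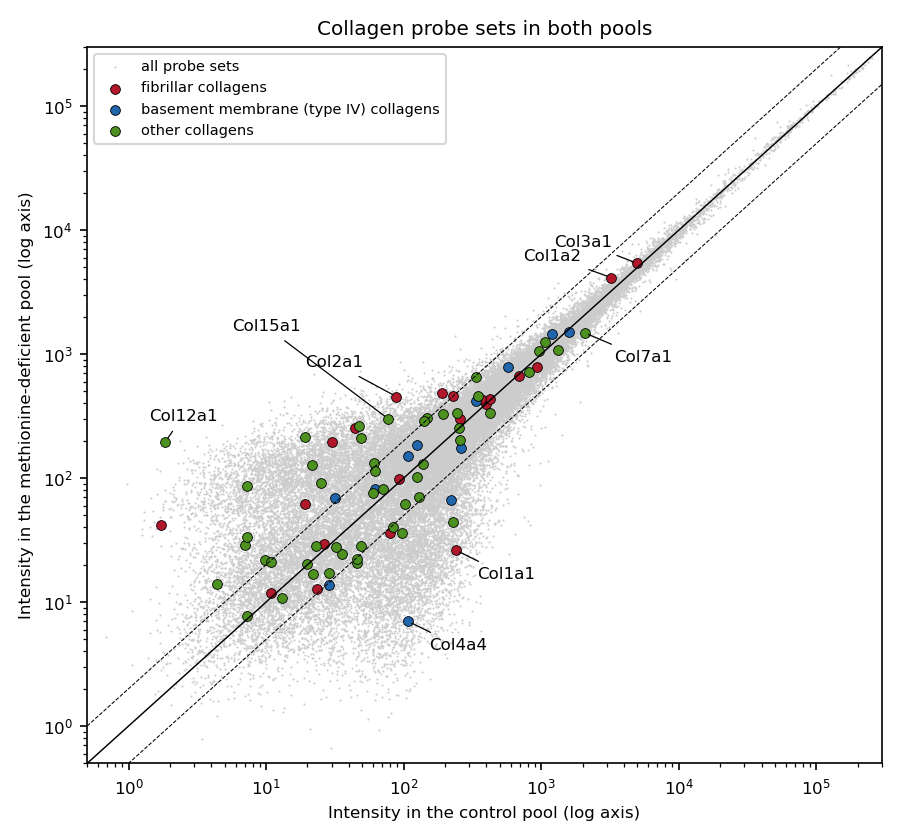
Intensity of each collagen probe set in the methionine-deficient pool (vertical, log axis) against the control pool (horizontal, log axis), coloured by class, over all probe sets in grey. The solid line marks equal intensity and the dashed lines 2-fold differences. Bright collagens such as Col3a1 (5386 in the methionine-deficient pool and 5007 in the control pool) lie near the line, and both the collagen and the grey points scatter widely at low intensities, with a Col12a1 probe set (197 in the methionine-deficient pool and 1.86 in the control pool) farthest from it.

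In their brightest probe sets, 7 of the 8 fibrillar collagen genes past the filter were within 1.5-fold between the pools, and the exception was Col2a1. That leaves 12.5% at least 1.5-fold different, beside 19.4% of all genes past the filter. Over all fibrillar probe sets past the filter, 3 of 11 were at least 2-fold different, each higher, beside 7.92% of those on the array. The class had 6 genes higher and 2 lower, with a median log2 difference of 0.16. Col3a1, whose homotrimers make up type III collagen, had an intensity of 5386 in the methionine-deficient pool and 5007 in the control pool (log2 difference 0.11 ± 0.23). Its second probe set read 662 in the methionine-deficient pool and 692 in the control pool, a log2 difference of -0.06. Neither value lies farther from 0 than the probe noise.

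Type I collagen, the main fibril protein, joins chains from Col1a1 and Col1a2, and the probe sets of these genes gave differing answers. Col1a2 had 4142 in the methionine-deficient pool and 3222 in the control pool, a 1.29-fold higher value (log2 difference 0.36 ± 0.23), and 18.7% of all probe sets in the same level bin lay at least as far from 0. A second Col1a2 probe set had 482 in the methionine-deficient pool and 189.7 in the control pool (log2 difference 1.34 ± 0.54), as far from 0 as 2.92% of the probe sets at its level. A dim probe set of Col1a2 read 11.9 in the methionine-deficient pool and 10.8 in the control pool. All 3 Col1a2 probe sets were thus higher in the methionine-deficient pool, by amounts between 0.12 and 1.34 on the log2 scale. Col1a1 had 297 in the methionine-deficient pool and 255 in the control pool in its brightest probe set (log2 difference 0.22 ± 0.54). Its other probe set, below the filter on its mean, had 26.2 in the methionine-deficient pool and 240.2 in the control pool, which is -3.15 ± 2.03. The direction of Col1a1 thus turns with the probe set, and the mean over its probe sets was -1.47.

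Because both genes are core fibrillar collagens with bright probe sets close between the pools, the stretches before the starts of Col1a2 and Col3a1 are shown, from RefSeq on build GRCm38.p6, the Col1a2 stretch at chr6:4505368-4505617 and the Col3a1 stretch at chr1:45311288-45311537, both on the plus strand and up to the base before the gene's start. Capitals mark the motifs TATAAA of the TATA box, CCAAT of the box of that name and GGGCGG of the GC box, searched on both strands.
Col1a2: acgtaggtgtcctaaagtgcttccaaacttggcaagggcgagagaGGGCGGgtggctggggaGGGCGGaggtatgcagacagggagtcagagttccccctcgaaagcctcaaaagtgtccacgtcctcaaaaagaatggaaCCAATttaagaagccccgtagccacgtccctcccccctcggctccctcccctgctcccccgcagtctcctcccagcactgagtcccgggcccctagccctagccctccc
Col3a1: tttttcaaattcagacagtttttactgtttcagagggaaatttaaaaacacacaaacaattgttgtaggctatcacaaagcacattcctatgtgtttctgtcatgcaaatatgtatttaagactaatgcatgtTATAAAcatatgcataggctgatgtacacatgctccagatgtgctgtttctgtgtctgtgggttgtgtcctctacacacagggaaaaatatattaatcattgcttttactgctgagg
The Col1a2 stretch holds 1 CCAAT and 2 GGGCGG copies and is 62.0% G or C, while the Col3a1 stretch holds 1 TATAAA copy and is 35.2% G or C. Among the 250 bases before the start in all 32851 promoter windows of RefSeq, TATAAA was found in 12.4%, CCAAT in 33.8% and GGGCGG in 32.7%. In the 36 windows of the 33 collagen genes that the table holds, the counts were 5, 13 and 21. These are matches of letters, and no binding was measured.

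Type V chains join type I and III fibrils and limit their width. Col5a1 had 437 in the methionine-deficient pool and 426 in the control pool in its brightest probe set (log2 difference 0.04 ± 0.54), a direction that turned to -0.02 when each array's median was subtracted. Another Col5a1 probe set had 461 in the methionine-deficient pool and 227 in the control pool (1.02), and a dim probe set differed by 0.17. Col5a2 had 787 in the methionine-deficient pool and 935 in the control pool, which is -0.25 ± 0.23, while its dim probe set went the other way at 1.62. Col5a3 had 433 in the methionine-deficient pool and 363 in the control pool (0.25), and its dim probe set differed by 2.65. No type V gene was 2-fold different in its brightest probe set, beside 6.68% of all genes past the filter. In each type V gene a dimmer probe set lay beyond 1 on the log2 scale, on the higher side.

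Col2a1, the chain of cartilage type II collagen, had the farthest difference among the collagen genes past the filter, with 455 in the methionine-deficient pool and 88.5 in the control pool. This is 5.10-fold higher (log2 difference 2.35 ± 0.97), it rests on 1 probe set, and the control value lies below the median intensity of that array. Of all probe sets at this level, 4.79% lay at least as far from 0. Col27a1, a fibrillar collagen also known from cartilage, had 395 in the methionine-deficient pool and 396 in the control pool. The remaining fibrillar genes were below the filter. Col11a2, a chain of cartilage type XI collagen, had 252 in the methionine-deficient pool and 44.2 in the control pool (2.49 ± 0.97). Its partner Col11a1 had 98.2 in the methionine-deficient pool and 92.5 in the control pool in its brightest probe set, and 41.8 in the methionine-deficient and 1.74 in the control pool in its other probe set. Col24a1 read 12.8 in the methionine-deficient pool and 23.6 in the control pool, near the low end of the arrays. Below an intensity of 98.7 the probe noise was 1.86 to 2.03.

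The type IV collagens of basement membranes were split, with 2 of the 4 genes past the filter higher and 2 lower, and a median log2 difference of 0.10. None of the 4 was at least 1.5-fold different, beside 19.4% of all genes past the filter. Col4a1 and Col4a2 encode the chains found in nearly all basement membranes and lie head to head, with overlapping promoter windows that share 78 bases. Col4a1 had 1509.6 in the methionine-deficient pool and 1590.4 in the control pool (log2 difference -0.08 ± 0.23). A second Col4a1 probe set, made from the same sequence record, had 790.2 in the methionine-deficient pool and 572 in the control pool (0.47 ± 0.23). Col4a2 had 1453 in the methionine-deficient pool and 1207 in the control pool (0.27 ± 0.23). The gap between the Col4a1 probe sets, 0.54, exceeds the gap between Col4a2 and either of them, so no difference between the paired genes can be read.

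Col4a3, Col4a4, Col4a5 and Col4a6 encode chains of more specialised basement membranes, such as that of the kidney glomerulus. Col4a5 had 419.5 in the methionine-deficient pool and 335 in the control pool (log2 difference 0.32 ± 0.54), and its second probe set had 185 in the methionine-deficient and 124 in the control pool (0.57 ± 0.97). Its head-to-head neighbour on the X chromosome, Col4a6, was below the filter, with 81.3 in the methionine-deficient pool and 61.9 in the control pool, and in another probe set 69.5 in the methionine-deficient and 31.8 in the control pool. All 4 probe sets of this pair were higher in the methionine-deficient pool, each by less than its probe noise. Col4a4 was lower in all 3 of its probe sets, with 175 in the methionine-deficient pool and 259.8 in the control pool in the brightest (log2 difference -0.57 ± 0.97). Its dimmer probe sets had differences of -1.01 and -3.76, and the farther of them read 6.999 in the methionine-deficient pool and 108 in the control pool. Col4a3, head to head with Col4a4, had probe sets of opposite sign, at 149.6 in the methionine-deficient pool against 108 in the control pool (0.47), and at 66.9 in the methionine-deficient pool against 221 in the control pool (-1.71).

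Since the probe sets of Col4a5 and Col4a6 shared their direction, the stretches before these genes are shown, from RefSeq on build GRCm38.p6 with the same motifs in capitals, each ending at the base before the annotated gene. The Col4a5 stretch lies at chrX:141475169-141475369 on the plus strand and the Col4a6 stretch at chrX:141474096-141474326 on the minus strand, and 1274 bases separate the genes.
Col4a5: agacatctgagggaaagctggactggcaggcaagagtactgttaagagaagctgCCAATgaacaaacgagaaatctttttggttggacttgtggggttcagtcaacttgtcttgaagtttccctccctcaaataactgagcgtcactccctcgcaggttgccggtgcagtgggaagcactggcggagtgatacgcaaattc
Col4a6: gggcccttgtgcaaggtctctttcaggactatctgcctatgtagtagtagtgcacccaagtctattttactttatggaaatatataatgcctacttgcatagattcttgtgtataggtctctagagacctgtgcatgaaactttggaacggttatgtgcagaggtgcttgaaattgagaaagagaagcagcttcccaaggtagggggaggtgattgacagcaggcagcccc
The 201 bases before Col4a5 hold 1 CCAAT copy, and the 231 bases before Col4a6 hold none of the motifs, which says only that these letters are not in that stretch. They are 49.8% and 45.5% G or C.

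Among the other collagens, 7 of 10 genes past the filter were higher and 3 lower, with a median log2 difference of 0.32 that turned to -0.07 over the 4 genes left by the 75th percentile filter. Those 4 genes encode types VI and VII. Type VI collagen forms beaded filaments around cells from chains of Col6a1, Col6a2 and Col6a3. Col6a1 had 1251 in the methionine-deficient pool and 1069.8 in the control pool (0.23), and Col6a3 had 1059 in the methionine-deficient and 959 in the control pool (0.14). Col6a2 had 1086 in the methionine-deficient pool and 1314 in the control pool (-0.27), and its second probe set, of a kind that can bind several genes, had 712 in the methionine-deficient and 819.9 in the control pool (-0.20). The chains of type VI thus did not share a direction, and all 4 values lie between -0.27 and 0.23, each ± 0.23. Col6a4, an alternative chain, was higher in both of its probe sets, with 333 in the methionine-deficient pool and 242 in the control pool (0.46 ± 0.54) and with 289 in the methionine-deficient and 141 in the control pool (1.03 ± 0.97). Col6a5, below the filter, had 82.4 in the methionine-deficient pool and 70.4 in the control pool.

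Col7a1, whose product forms the fibrils that anchor epithelial basement membranes, was the lower collagen with the farthest difference among bright probe sets. It had 1484 in the methionine-deficient pool and 2067 in the control pool, a 1.39-fold lower value (log2 difference -0.48 ± 0.23), read through 1 probe set. Of all probe sets in the brightest level bin, 10.3% lay at least as far from 0. Col15a1 and Col18a1 encode the collagens of the outer face of basement membranes. Col15a1 had 302 in the methionine-deficient pool and 76.8 in the control pool, 3.90-fold higher (log2 difference 1.96 ± 0.97), from 1 probe set with a control value below that array's median. Its mean level lay just above the filter, at 7.26 on the log2 scale against 7.24. Col18a1 had 462 in the methionine-deficient pool and 346 in the control pool in a probe set that can bind several genes (0.42), and 337 in the methionine-deficient and 421 in the control pool in the other (-0.32). With types VII, XV and XVIII counted among the basement membrane collagens, the median of that class was 0.27 over 7 genes.

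Collagens that sit on the surface of fibrils include the products of Col9a1, Col12a1, Col14a1, Col16a1, Col19a1, Col20a1 and Col22a1. Col14a1 had 649.8 in the methionine-deficient pool and 338 in the control pool, 1.92-fold higher (log2 difference 0.94 ± 0.54), but its second probe set past the filter had 252 in the methionine-deficient and 254 in the control pool (-0.02). Col9a1 had 329 in the methionine-deficient pool and 192 in the control pool (0.77 ± 0.54), while its dim probe set went the other way at -0.21 and the mean over both was 0.28. Col20a1 had 203 in the methionine-deficient pool and 257 in the control pool (-0.34), and its second probe set had 306 in the methionine-deficient and 147 in the control pool (1.06), so its direction turned as well. Of the genes below the filter, Col12a1 gave the widest range, with 213 in the methionine-deficient pool and 19.1 in the control pool in its brightest probe set, and 4 probe sets between -1.11 and 6.12. Col19a1 had 3 probe sets between -2.34 and 3.40, and Col22a1 had 3 between -1.02 and 2.45. Col16a1 had 70.8 in the methionine-deficient pool and 129 in the control pool, Col9a2 had 10.7 in the methionine-deficient and 13.0 in the control pool, and Col9a3 had 127 in the methionine-deficient and 21.5 in the control pool with all 3 probe sets higher.

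The rest of the collagens were below the filter. In the short-chain network group, Col8a1 had 115 in the methionine-deficient pool and 61.6 in the control pool, Col8a2 had 91.1 in the methionine-deficient and 25.2 in the control pool, and Col10a1, known from growth cartilage, had 209 in the methionine-deficient and 48.7 in the control pool (2.08 ± 0.97). Among collagens that cross the cell membrane, Col13a1 had 129.6 in the methionine-deficient pool and 138 in the control pool, Col17a1 had 29.0 in the methionine-deficient and 6.98 in the control pool, Col23a1 had 36.02 in the methionine-deficient and 96.7 in the control pool, and Col25a1 had 102 in the methionine-deficient and 124 in the control pool. Col26a1 had 75.5 in the methionine-deficient pool and 59.4 in the control pool. Over the 20 genes below the filter 13 were higher and 7 lower, and 9 were at least 2-fold different (45.0%), while of all named genes below the filter 55.7% were.

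**Figure D2:**
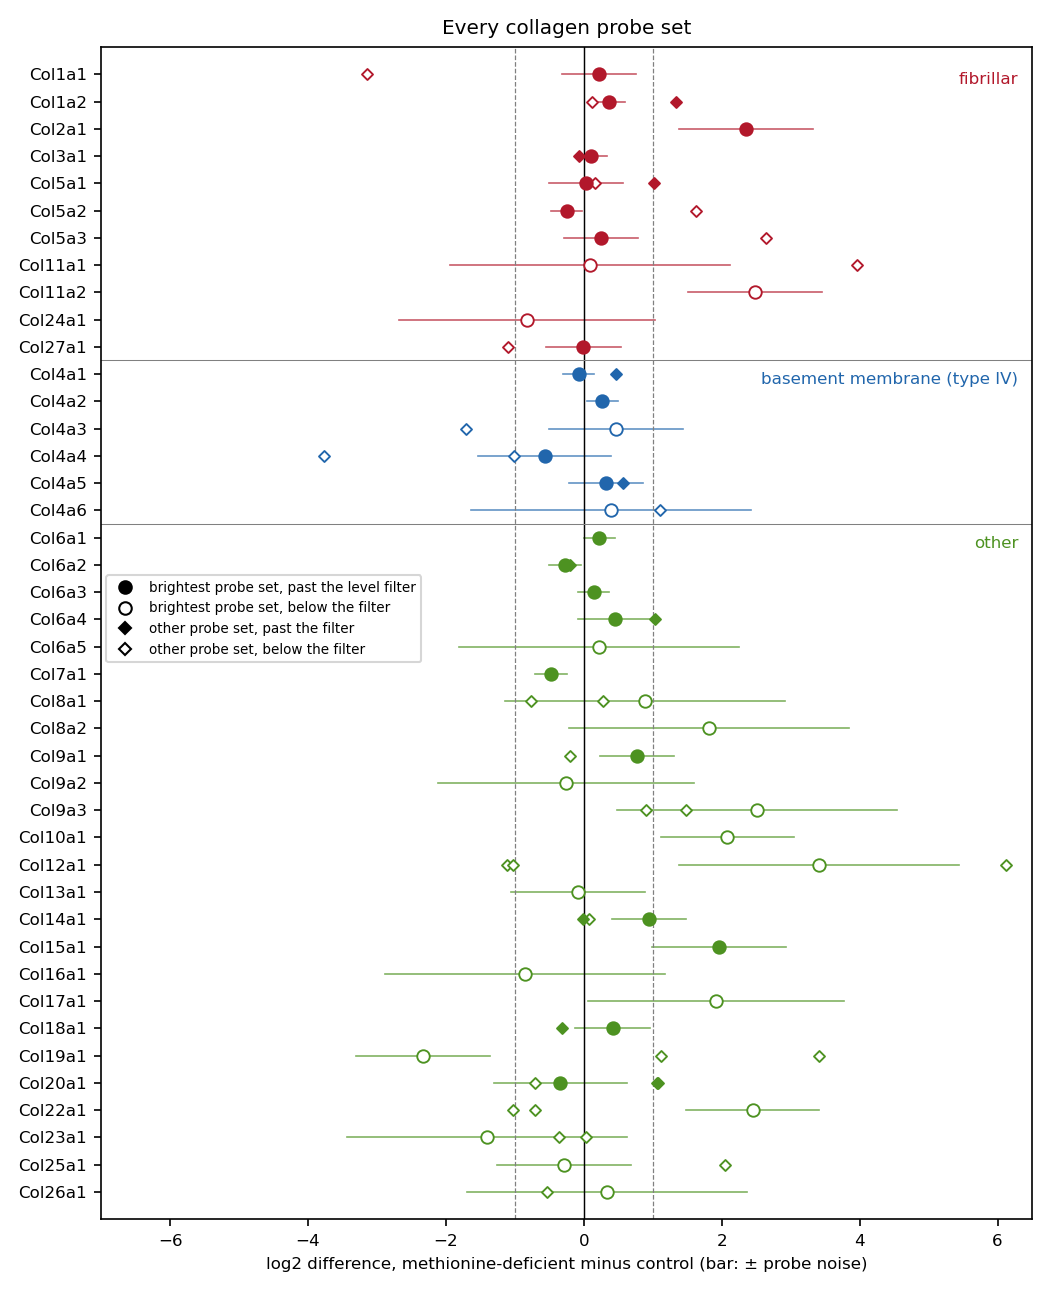
log2 difference (methionine-deficient minus control) of all 82 collagen probe sets, by gene and class. Circles are the brightest probe set of a gene with a bar of plus and minus its probe noise, diamonds are the other probe sets, and filled symbols passed the level filter. Filled circles lie mostly within 0.5 of 0, apart from Col2a1, Col15a1, Col14a1, Col9a1 and Col4a4, and open symbols scatter from -3.76 to 6.12.

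Probe sets of the same collagen gene often disagreed. Of 27 collagen genes with 2 or more probe sets, 8 had all of them higher, 3 had all lower and 16 had both signs. The same shares over all genes of the array were not computed. Where the brightest and the second probe set both passed the filter, they shared a direction in 5 of 10 collagen genes, beside 52.1% of the 4819 such genes on the array. The genes with all probe sets higher were Col1a2, Col4a5, Col4a6, Col5a1, Col5a3, Col6a4, Col9a3 and Col11a1, of which Col4a6, Col9a3 and Col11a1 had no probe set past the filter. Those with all lower were Col4a4, Col6a2 and Col27a1. Among 13 sequence records that gave more than 1 collagen probe set, 8 had all their probe sets in the same direction, with no share over the array computed. The gap between probe sets of the same record had a median of 1.03 on the log2 scale and ran from 0.07 for Col6a2 to 3.88 for Col11a1. In the records with all probe sets past the filter, those of Col6a2, Col3a1, Col4a5 and Col4a1, it ran from 0.07 to 0.54. The wider gaps involved probe sets below the filter.

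How far a collagen probe set lay from 0 went with its brightness. None of the 12 collagen probe sets of the brightest level bin was 2-fold different, beside 0.833% of all probe sets there. Their median log2 difference was 0.02, with 6 higher and 6 lower. A probe set of Col7a1 and one of Col4a1 lay beyond 2 times the probe noise, as did 11.4% of all probe sets of that bin. In the next bin 2 of 13 were 2-fold different, beside 8.09% of all, and both were higher. In the middle bin, at intensities from 98.7 to 229, 9 of 15 were 2-fold different, 7 of them higher, beside 30.7% of all probe sets. In the dim bins below it the counts were 10 of 18, beside 65.6%, and 12 of 24, beside 55.2%. Over all 50 collagen probe sets below the filter 27 were 2-fold different, where the share over the array was 56.2%, and of the 32 past the filter 6 were, where it was 7.92%.

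**Figure D3:**
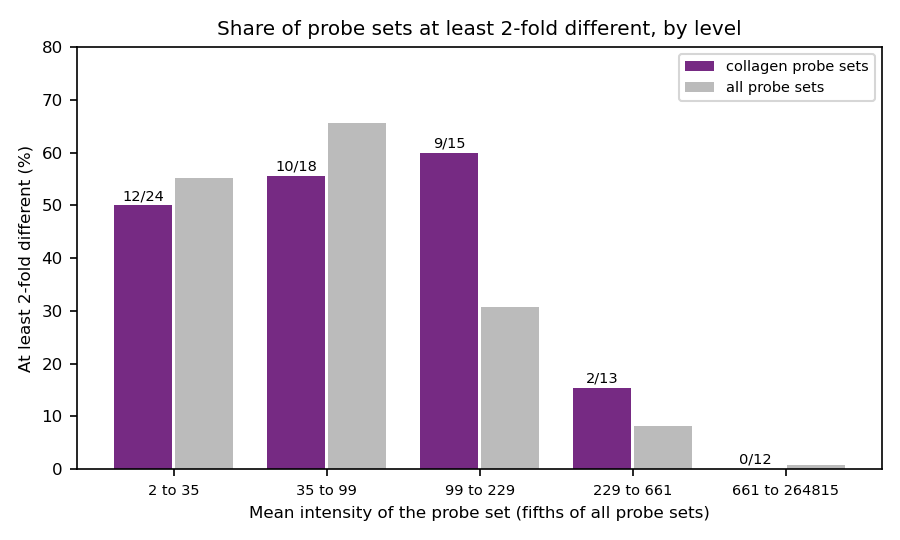
Share of probe sets at least 2-fold different in either direction (percent, vertical) for collagen probe sets and all probe sets, in 5 equal bins of mean intensity. The counts above the collagen bars are probe sets at least 2-fold different over all collagen probe sets of the bin. The share is 0 of 12 in the brightest bin and 9 of 15 in the middle bin.

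Genes that build, process and take apart collagen had medians near 0. Of 18 measured genes for chain modification and folding 13 passed the filter, 7 higher and 6 lower, and their median log2 difference was 0.00 (0.0047). None of the 13 was 2-fold different, beside 6.68% of all genes past the filter. P4hb, a subunit of the prolyl hydroxylase that stabilises the helix and an isomerase abundant in acinar cells, had 80903 in the methionine-deficient pool and 80642 in the control pool. Serpinh1, the collagen chaperone HSP47, had 3453 in the methionine-deficient pool and 3236 in the control pool (0.09), and its second probe set differed by -0.31. Of the catalytic prolyl hydroxylase genes, P4ha1 was at 0.20 in its brightest probe set and 1.498 in the other that passed the filter, and P4ha2 was at -0.64. The lysyl hydroxylase gene Plod1 was at 0.53, Colgalt1, which adds galactose to hydroxylysine, at 0.27, and Fkbp14, a prolyl isomerase, at -0.47.

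In the list of propeptide processing and cross-linking 4 of 8 genes past the filter were higher and 4 lower, and the median was 0.03. Lox, the lysyl oxidase that cross-links fibrils, had 487 in the methionine-deficient pool and 321 in the control pool (log2 difference 0.60 ± 0.54), with 0.52 in its second probe set. Its relatives went the other way, with Loxl1 at -0.10, Loxl3 at -0.56 and Loxl4 at -0.71. Tgm2, a transglutaminase that cross-links matrix proteins, was at 0.42, with 5 probe sets past the filter between -0.46 and 0.71, and Pcolce2 was at -0.38. Pcolce, which speeds removal of the C-terminal propeptide, had 1259 in the methionine-deficient pool and 1129 in the control pool (0.16), and Bmp1, the protease it helps, was below the filter at 111 in the methionine-deficient and 148 in the control pool.

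Proteins bound to fibrils were represented by 14 genes past the filter, 8 higher and 6 lower, with a median of 0.02. The small proteoglycan genes Dcn and Lum had differences of -0.15 and 0.17, and Bgn had -0.18, all within the probe noise of 0.23. Fmod, another small proteoglycan of fibrils, had 363 in the methionine-deficient pool and 127 in the control pool (log2 difference 1.51 ± 0.97), with 3 probe sets past the filter between 0.22 and 1.51. Cilp, a matrix protein known from cartilage, had 319 in the methionine-deficient pool and 129.8 in the control pool (1.29 ± 0.97). These were the 2 genes of the list that were 2-fold different, beside the background of 6.68%. The matrix glycoprotein gene Tnc was at 0.84 ± 0.97, the small proteoglycan genes Ogn and Prelp were at 0.25 and -0.25, and the fibronectin gene Fn1 was at 0.08.

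The partners of type IV collagen in basement membranes were 5 higher and 8 lower among 13 genes past the filter, with a median of -0.07 that turned to 0.10 with the 75th percentile filter. Nid1, which links laminin to type IV collagen, had 1765 in the methionine-deficient pool and 1312 in the control pool (log2 difference 0.43 ± 0.23), while its relative Nid2 was at -0.50 ± 0.54. The laminin genes Lamb1 and Lamc1 were at 0.00 (-0.0025) and -0.37, and Lama3 was the farthest of the genes past the filter at -0.88 ± 0.97. Lama4, below the filter, was at 1.81 ± 0.97. Agrn, a heparan sulphate proteoglycan, was at -0.58 with 659 in the methionine-deficient pool and 989 in the control pool. Sparc, a collagen-binding protein, was at 0.11, but its 3 probe sets past the filter ran from -1.33 to 0.40. The perlecan gene Hspg2 likewise had 0.27 and -0.80.

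Collagen receptors were 2 higher and 6 lower among 8 genes past the filter, with a median of -0.13. The integrin genes Itga1 and Itgb1, which pair in a collagen receptor, were at -0.51 and -0.02, each ± 0.23, and both had a probe set past the filter on the higher side, at 0.01 and 0.05. Itga10 and Itga2, other collagen-binding integrin genes, were at -0.56 and -0.17, the endocytic receptor gene Mrc2 was at -0.25, and Lair1, an inhibitory receptor of leukocytes, was at 0.55. Ddr2, a receptor kinase for fibrillar collagen, was at 0.06. Among collagenases and their inhibitors 5 of 12 genes were higher and 7 lower, and the median was -0.03. Mmp3, the protease stromelysin, had 307 in the methionine-deficient pool and 75.7 in the control pool (4.01-fold higher, probe noise 0.97). It was read through 1 probe set with a control value below that array's median. It was the only gene of this list past the filter that was 2-fold different (8.33%), beside 6.68% of all genes. Ctsk, the protease cathepsin K, was at -0.78 ± 0.97. Mmp14 was at 0.24 and Timp1 at -0.06. Mmp2 was at 0.53 and its other probe set past the filter at -0.38, and Timp3 was at -0.22 while 3 of its 4 probe sets were higher, up to 0.40.

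The TGF-beta pathway, which drives collagen transcription in fibroblasts, had 10 of 13 genes past the filter higher and 3 lower, with a median of 0.15. None of the 13 was 2-fold different, beside 6.68% of all genes past the filter. The pathway's target Ccn2 had 859 in the methionine-deficient pool and 615 in the control pool (log2 difference 0.48 ± 0.23). The signal transducers Smad2 and Smad3 had differences of 0.74 and 0.35, though Smad3 probe sets ran from -0.52 to 2.18, and the receptor gene Tgfbr2 was at -0.33. Tgfbr1, its partner receptor gene, was at -0.33 in its brightest probe set, but 2 of its 3 probe sets past the filter were higher, up to 0.63. The ligand gene Tgfb1 was below the filter, with 114 in the methionine-deficient pool and 73.8 in the control pool.

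**Figure D4:**
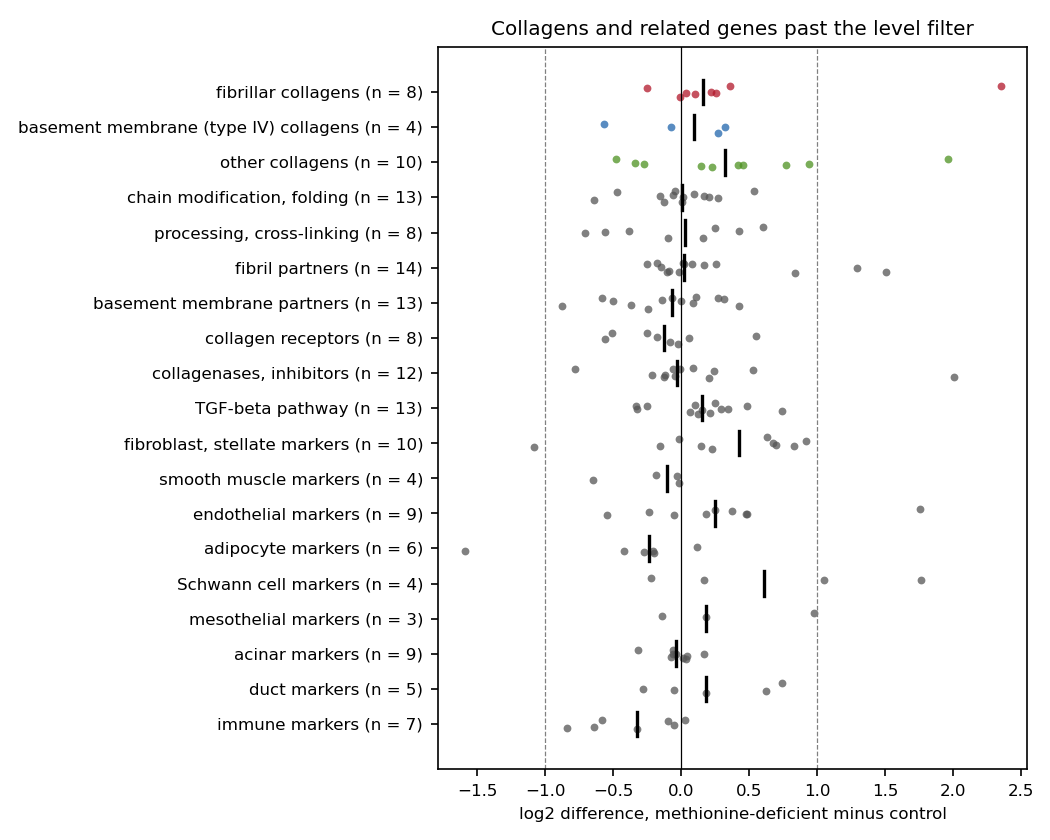
log2 difference (methionine-deficient minus control) of genes past the level filter, by collagen class and by list of related genes or cell type markers. Points are genes, read by their brightest probe set, black lines are medians and dashed lines mark 2-fold. Medians lie between -0.32 for immune markers and 0.61 for Schwann cell markers, and those of the collagen classes between 0.10 and 0.32.

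Markers of the cells that make matrix moved in both directions, and their part in the collagen values was not tested. Summed intensities of markers, here and in the next paragraph, follow the brightest probe sets and include markers below the filter. Of 10 fibroblast and stellate cell markers past the filter 7 were higher and 3 lower, the median being 0.43, which turned to -0.08 with the 75th percentile filter, and the summed intensity of the 12 measured was 9156 in the methionine-deficient pool and 8214 in the control pool. Pdgfra, a receptor of fibroblasts, had 405 in the methionine-deficient pool and 859 in the control pool (-1.08), while Pdgfrb, its relative on pericytes and stellate cells, had 221 in the methionine-deficient and 142 in the control pool (0.63). Des, an intermediate filament of stellate and muscle cells, was at 0.92, and the fibroblast gene Pi16 at 0.83. Gli1 was at 0.69 and Mfap5 at 0.68, with -0.49 in its second probe set past the filter. The rest of these markers past the filter lay nearer 0, with Vim at 0.15, Thy1 at 0.22, Rgs5 at -0.15 and Dpep1 at -0.02. Dimmer probe sets of Rgs5 and Dpep1 past the filter ran down to -0.72 and -0.74. All 4 smooth muscle markers past the filter were lower, with Acta2 at -0.18, Tagln at -0.65, Actg2 at -0.03 and Myh11 at -0.02, a median of -0.11 and sums over 7 genes of 2879.5 in the methionine-deficient pool and 3548 in the control pool.

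Of 9 endothelial markers past the filter 6 were higher (median 0.25), led by Flt1 at 1.76, whose 4 probe sets ran from -0.13 to 1.76. Tek was at 0.48, Emcn at 0.37 and Pecam1 at 0.25, while Tie1, Esam and Plvap were lower at -0.54, -0.23 and -0.05. Cdh5 was at 0.48 and its other probe set past the filter at -0.50. The endothelial sum over 11 genes was 6904 in the methionine-deficient pool and 5889.6 in the control pool. Of 6 adipocyte markers 5 were lower (median -0.24), with Cidec at -1.59, Lipe at -0.42, Cd36 at -0.27, Adipoq at -0.20 and Fabp4 at -0.21. Retn was the higher one at 0.12. The Fabp4 probe sets past the filter ran from -0.35 to 0.82. The adipocyte list had sums over 7 genes of 16669 in the methionine-deficient pool and 19540.1 in the control pool. Of these, Fabp4 held 11232.5 in the methionine-deficient pool and 12966 in the control pool. Among Schwann cell markers Ngfr was at 1.76 ± 0.97 and Gfap at 1.05 ± 0.54, with -0.08 in another Gfap probe set, while Sox10 was at 0.17 and Erbb3 at -0.22. Ngfr had 364 in the methionine-deficient pool and 107 in the control pool, so its control value lay below the filter intensity. The median of the Schwann cell markers was 0.61 over 4 genes, with sums over 6 of 2503 in the methionine-deficient pool and 2172 in the control pool. Mesothelial and duct markers had medians of 0.19 each, over 3 and 5 genes, with sums of 2030.2 and 18139 in the methionine-deficient pool and 1905 and 19829 in the control pool. The duct sum was lower in the methionine-deficient pool although the duct median was above 0, and its brightest genes were Krt18 and Muc1. The mesothelial genes Lrrn4 and Upk3b were at 0.98 and -0.14 (0.39 in a second Upk3b probe set), Krt19, on both lists, was at 0.19, and the duct genes Krt7, Sox9, Krt18 and Muc1 were at 0.74, 0.62, -0.28 and -0.06. Acinar markers had a median of -0.04 over 9 genes, and their sums were 1329520 in the methionine-deficient pool and 1343550 in the control pool. Of these, Ptf1a was at -0.32, Bhlha15 at 0.16 with -0.29 in its second probe set, Cela2a at -0.08 and Cela1 and Ctrb1 at -0.06. Of 7 immune markers 6 were lower (median -0.32). The leukocyte gene Ptprc was at -0.58, the plasma cell gene Jchain at -0.84 ± 0.23 and the B cell genes Ms4a1 and Cd79a at -0.64 and -0.32. The macrophage gene Csf1r was at -0.10, though 2 of its 3 probe sets were higher. The remaining immune markers past the filter lay nearer 0, with Lyz2 at -0.05 and Adgre1 at 0.03. The immune list had sums over 8 genes of 8538 in the methionine-deficient pool and 11097 in the control pool. Of these, Jchain held 2281 in the methionine-deficient pool and 4087 in the control pool. None of the marker genes was listed at 0 in either pool, which says nothing about whether a marker was detected. The lowest value of any probe set was 0.669 in the methionine-deficient pool and 0.685 in the control pool.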

How the data were processed

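Pancreas RNA of 2 groups was measured as 1 pool on 1 array each. Per the labels, a Trizol extract was turned into biotin-labelled cRNA (GeneChip 3' IVT Express). The deposited values are linear intensities per probe set. Not given in the sources used here is how the authors summarised and background-corrected them. The mean after trimming 2% at each end was 500.003 on both arrays, so they appear to share a scale, and the median intensity was 171 in the methionine-deficient pool and 165 in the control pool. The number of arrays limits the precision.

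Symbols came from the platform annotation of GEO, updated through gene identifiers to RefSeq symbols for 34741 of 34945 probe sets with 1 symbol. Probe sets with several symbols (932) or none (9160) and 64 control spots were left out of gene counts. Values were taken to log2(intensity + 1), which understates differences of dim probe sets, without rescaling. Named were every collagen gene and, of each list, the up to 5 genes past the filter with the farthest difference, those past 2-fold in that list and a fixed set. Some further list members were added, such as Cpa1 for its role and the remaining fibroblast and stellate cell markers past the filter. The members, lists and named genes were chosen with earlier results of these data known. The counting was tested on simulated data. The alternatives tried were scaling by quantiles, by loess or by array medians, a pseudocount of 16 and other filters, folds and summaries. Python 3.11.15, numpy 2.4.6, pandas 2.3.3, scipy 1.17.1 and statsmodels 0.14.6 were used.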

Additional observations from a re-analysis of the deposited data

How the results depend on the processing

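Median centring, quantile and loess scaling and a pseudocount of 16 kept the sign of the median of all, fibrillar, basement membrane and other collagens and the 2 genes counted 2-fold higher. Median centring shifted all genes by 0.05 and left 14 collagens higher and 8 lower. Without a level filter, which lets in dim genes, the number counted higher and lower was 9 and 2 of 42. Of all named genes, 55.7% of those below the filter and 6.68% of those past it were 2-fold different. The share over both together was not computed. With the 75th percentile filter, which leaves 9 genes of the brightest level bin, the number of collagens counted was 0 and 0. Of all genes in that bin 0.708% were 2-fold different. With the mean over probe sets the number counted was 3 and 2 of 22, and the share over all genes was not computed for this setting. At 1.5-fold the number was 4 and 0, while 19.4% of all genes past the filter differed by 1.5-fold either way. At 3-fold the number was 2 and 0, and the share over all genes was not computed. Medians for basement membrane collagens were 0.30 without a filter, 0.23 with the mean over probe sets, -0.013 as the mean over genes, 0.27 with the wider class and 0.30 over probe sets. For fibrillar collagens they were 0.51 with the mean over probe sets and 0.38 as the mean over genes. For other collagens they were -0.066 with the 75th percentile filter and 0.18 without ambiguous probe sets (those that can bind more than 1 gene), and for all collagens 0.11 with the 75th percentile filter. The lists whose median changed sign by over 0.1 were processing and cross-linking (-0.24 without a filter, -0.090 without ambiguous probe sets), basement membrane partners (0.10), fibroblast (-0.085) and Schwann cell markers (-0.025) with the 75th percentile filter, duct markers (-0.055 with that filter and by the mean of all probe sets) and collagenases (0.11 with the mean over probe sets, 0.14 as the mean over genes). The cause was not tested. Of the single collagen genes, 9 values moved by more than the probe noise and 154 did not. Apart from Col18a1, which moved without ambiguous probe sets, they moved with the mean over probe sets. The level filters cannot move a gene that is read by its brightest probe set. The 154 thus do not measure how firm the values of single genes are. Below an intensity of 229 the probe noise is 0.97 or more, about the size of a 2-fold difference or larger. No paired analysis was possible because each group is 1 pool.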

Other observations

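Among all collagen probe sets, chosen here after their values were seen, the farthest difference was that of a Col12a1 probe set, with 197 in the methionine-deficient pool and 1.86 in the control pool (log2 difference 6.12 ± 1.86 probe noise). No other of the 9008 probe sets in the dimmest level bin lay as far from 0, while another Col12a1 probe set of that bin had 20.8 in the methionine-deficient pool and 46.0 in the control pool. Collagen genes best known from cartilage, also grouped after their values were seen and so given with no count as support, had their brightest probe sets at 2.35 for Col2a1, 2.49 for Col11a2, 0.77 for Col9a1, 2.51 for Col9a3 and 2.08 for Col10a1, but at 0.09 for Col11a1, -0.26 for Col9a2 and -0.01 for Col27a1. Of these, Col2a1, Col9a1 and Col27a1 passed the level filter.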
